A study of Mus musculus with 6 samples.

Results

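Semaphorins, plexins and neuropilins are 31 protein-coding mouse genes of 21887 with a RefSeq position. They were chosen by symbol (Sema3 to Sema7, Plxna to Plxnd, Nrp1 and Nrp2) and comprised 20 semaphorins, 9 plexins and 2 neuropilins. Accessible intervals were assigned to them where the midpoint of the interval lay inside the gene, or where the nearest end of any protein-coding gene belonged to one of them and lay within 300 kb. This gave 194 of 52223 intervals, at 30 of the 31 genes. Plxnb3 had none.

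Accessibility was measured by ATAC-seq, in which the Tn5 transposase inserts sequencing adapters into open chromatin. Mouse embryonic stem cells were differentiated towards neural progenitors in 6 samples, all with CHIR99021 (5 µM, a GSK3 inhibitor) on day 2, retinoic acid (100 nM) from day 3 to day 5, and Smoothened agonist (10 nM) from day 3 onwards. On day 5 the cultures received a lentivirus carrying either mScarlet alone (3 samples, called mScarlet) or Nr6a1 joined to mScarlet through a 2A peptide (3 samples, called Nr6a1OE). On day 9 fluorescent cells were sorted, and 50000 entered each library. Nr6a1, or germ cell nuclear factor, belongs to the orphan nuclear receptors, and the comparison asks what its overexpression does to chromatin, here at these guidance genes. The sources used here do not name the promoter that drives the transgene or the stem cell line, and the sort kept transduced cells of any identity. The libraries held 6857763 to 8030029 fragments in intervals. All 11 neural progenitor markers examined, Sox1 and Sox2 among them, had an interval within 1 kb of a gene end, at 12.3 to 134 CPM (fragment counts scaled to library size) in mScarlet. Their summed level was 815 CPM in mScarlet and 816 CPM in Nr6a1OE. Of the other marker lists, 5 of 8 neuron, 3 of 4 neural crest, 3 of 4 mesoderm, 2 of 4 endoderm, 1 of 4 endothelial and 1 of 4 pluripotency genes had such an interval, and Pou5f1, Nanog and Zfp42 had none. The summed levels of these lists in mScarlet and Nr6a1OE were 246 and 242 CPM for neuron, 49.8 and 48.7 for neural crest, 97.4 and 101 for mesoderm, 81.6 and 79.2 for endoderm, 40.8 and 38.8 for endothelial and 80.5 and 83.3 for pluripotency genes. Sums can hide single markers: in the mesoderm list T went from 14.6 to 18.6 CPM (edgeR adjusted p 0.0565). In the same list Tbx6 went from 40.0 to 41.8 CPM and Tcf15 from 42.8 to 40.5. An open start does not show that a gene is transcribed, and RNA was not analysed here.

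Semaphorins are secreted, transmembrane or membrane-anchored proteins that steer axons, migrating neurons and blood vessels, often by repulsion. Most signal through plexins, receptors whose cytoplasmic domain acts on small GTPases. Most class 3 semaphorins bind a plexin of the A class through a neuropilin, which holds the ligand, whereas the transmembrane classes generally bind plexins directly. In the developing spinal cord this system sorts motor and sensory axons and keeps neuronal cell bodies inside the neural tube.

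RefSeq (GRCm38.p6) gave 37 promoters, each 250 bases before to 50 after a transcript start, for 26 of the 31 genes. Plxna1, Plxna4, Sema3b, Sema3f and Sema6a had no entry. The following 4 are shown because they span the range from the most accessible start to a start in no interval, with CpG dinucleotides in capitals, 5′ to 3′ on the strand of the gene. Sema5b held 27 CpG (chr16:35541112-35541411, plus strand), Nrp1 14 (chr8:128358823-128359122, plus strand), Sema3e 11 (chr5:14025026-14025325, plus strand) and Plxnb3 4 (chrX:73756853-73757152, plus strand).
Sema5b: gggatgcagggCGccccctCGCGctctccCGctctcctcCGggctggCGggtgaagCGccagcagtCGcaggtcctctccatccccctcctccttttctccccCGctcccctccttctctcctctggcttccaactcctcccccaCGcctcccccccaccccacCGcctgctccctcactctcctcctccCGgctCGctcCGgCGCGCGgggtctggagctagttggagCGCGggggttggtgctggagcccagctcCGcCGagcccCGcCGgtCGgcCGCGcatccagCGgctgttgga
Nrp1: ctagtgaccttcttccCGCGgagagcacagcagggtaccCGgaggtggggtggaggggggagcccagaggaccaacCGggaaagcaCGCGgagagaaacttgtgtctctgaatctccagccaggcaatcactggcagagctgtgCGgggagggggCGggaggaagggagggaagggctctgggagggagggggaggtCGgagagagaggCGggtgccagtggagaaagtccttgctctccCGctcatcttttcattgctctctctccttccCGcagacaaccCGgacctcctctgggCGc
Sema3e: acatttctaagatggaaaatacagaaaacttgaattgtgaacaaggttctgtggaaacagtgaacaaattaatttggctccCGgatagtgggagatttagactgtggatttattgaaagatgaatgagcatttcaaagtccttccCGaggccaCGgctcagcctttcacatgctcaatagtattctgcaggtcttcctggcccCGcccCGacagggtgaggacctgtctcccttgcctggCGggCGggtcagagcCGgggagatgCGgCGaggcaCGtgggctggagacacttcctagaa
Plxnb3: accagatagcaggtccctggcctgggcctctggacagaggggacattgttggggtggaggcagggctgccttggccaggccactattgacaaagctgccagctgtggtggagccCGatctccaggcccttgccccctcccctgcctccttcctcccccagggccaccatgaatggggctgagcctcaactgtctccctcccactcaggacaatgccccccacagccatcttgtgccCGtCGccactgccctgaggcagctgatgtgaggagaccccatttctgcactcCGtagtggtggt

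The Sema5b start lay in an interval of 76.8 CPM per kb of interval in mScarlet, the highest per-length level among member intervals that hold a start. The Nrp1 start lay in one of 40.7 CPM per kb and the Sema3e start in one of 14.4 CPM per kb. The Plxnb3 start lay in no interval. Of the 37 promoters, 27 (73.0%) had their start in an interval, against 61.0% of 21263 promoters of all protein-coding genes. The median was 23 CpG in member promoters with the start in an interval and 3.5 in the other 10, against 22 and 3 over all genes. Over the 25 member intervals that hold a start, the CpG number and the mScarlet level per kb had a Pearson coefficient of 0.52 and a Spearman coefficient of 0.51, as a description across intervals that share their libraries. The GC box GGGCGG was present on either strand in 27 of the 37 promoters (73.0%) and in 46.2% of all. Among promoters with the start in an interval, it was present in 85.2% of members and 68.4% of all. The hexamer AGGTCA, which nuclear receptors of this kind bind, was present in 7 (18.9%) and in 14.7% of all. Its extended form TCAAGGTCA, which contains AGGTCA, was in 0 of 37 and 0.334% of all promoters, and a direct repeat of AGGTCA without spacer was in 0 of 37 and in 2 of all promoters.

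**Figure D1:**
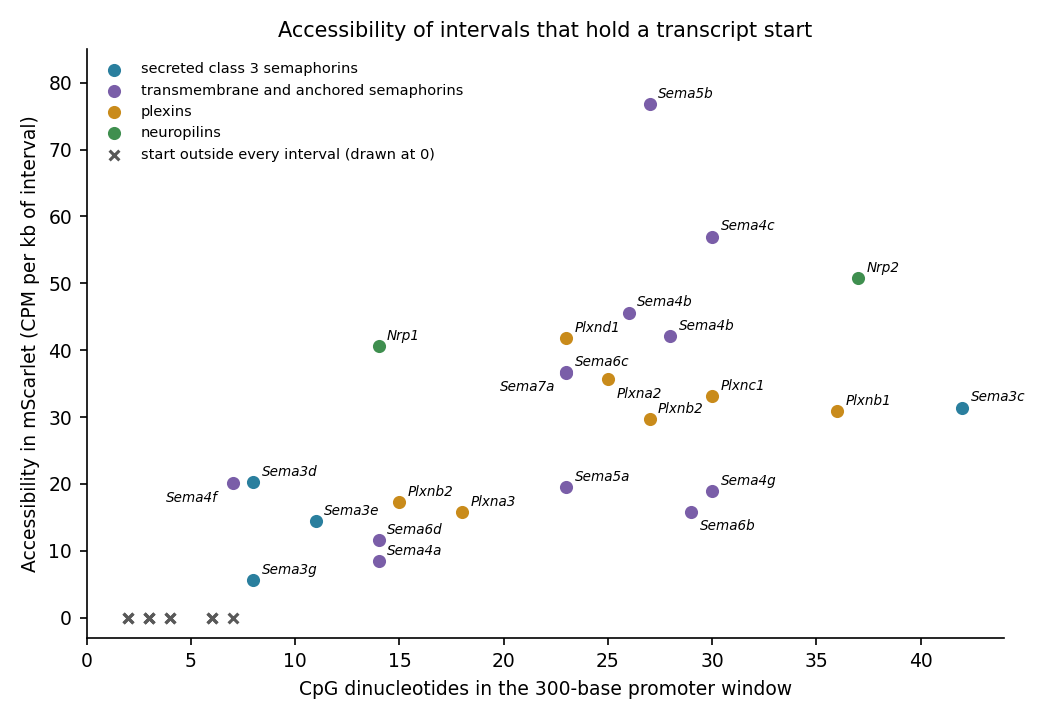
Accessibility in mScarlet (mean of 3 libraries, CPM per kb of interval) of the 25 member intervals that hold a RefSeq transcript start, against the number of CpG dinucleotides in the 300-base promoter window; crosses on the zero line are starts outside every interval. Starts outside intervals have few CpG, Sema5b is highest at 76.8 CPM per kb and Sema3g is lowest at 5.63.

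Among the start intervals, Sema5b (a transmembrane semaphorin with thrombospondin repeats) was followed by Sema4c at 57.0 CPM per kb and Nrp2 at 50.8. Next came the Sema4b starts at 45.6 and 42.1, and Plxnd1 at 41.8. The lowest after Sema3g were Sema4a at 8.49, Sema6d at 11.7 and Sema3e at 14.4 CPM per kb. The control level ranged widely among starts of genes of 1 family, while the change with Nr6a1 at the same intervals was small. In Nr6a1OE, the intervals that hold a start differed from mScarlet by a median log2 fold change of 0.043, and 0 of 25 passed an adjusted p of 0.05 in the edgeR quasi-likelihood test with Benjamini-Hochberg adjustment over all 51637 tested intervals. Over all tested intervals 1.73% passed. Of the 25, 10 were lower and 15 higher. At unadjusted p under 0.05, 0 of the 25 were lower and 1 (4%) higher, against 6.87% and 5.73% over all tested intervals. The groups did not overlap at 5 of the 25 (20%), 1 lower and 4 higher. Over all tested intervals they did not overlap at 16.6%, with 8.73% lower and 7.89% higher. DESeq2 called 0 of the 25. For 25 genes the most accessible interval within 1 kb of a gene end could be compared: 12 were higher and 13 lower in Nr6a1OE, from -0.16 at Sema3a to 0.29 at Sema3g, and the smallest edgeR adjusted p was 0.567. At the Sema5b start the 3 mScarlet libraries gave 189, 195 and 181 CPM and the Nr6a1OE libraries 187, 175 and 189. These groups overlapped (log2 fold change -0.03, SE 0.035).

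Accessibility fell at 2 member intervals and rose at 1 with Nr6a1, and those 3 lay inside Sema6a, Sema3e and Sema3f. Fall and rise stand here for adjusted p under 0.05 in that edgeR test. Of the 194 intervals, 190 passed the filter on low counts, which removed 2 at Plxnc1, 1 at Sema3a and 1 at Sema3c. The 3 calls were 1.58% of the 190, against 1.73% called over all tested intervals, of which 1.26% fell and 0.469% rose. The share called among members was thus near that of the genome. The median log2 fold change of the members was -0.0047, and 0.0038 over all tested intervals, with 97 members lower and 93 higher. At unadjusted p under 0.05, 15 members (7.89%) were lower and 5 (2.63%) higher, against 6.87% and 5.73% over all tested intervals. The groups did not overlap at 26 members (13.7%), against 16.6% of all tested intervals. Of these, 17 were lower and 9 higher, against 8.73% and 7.89% over all tested intervals. The labels do not name separate cultures, so each p-value reflects only the spread between samples, and that spread may be technical.

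By position, the 27 member intervals within 1 kb of an end of their gene had a median level of 43.0 CPM in mScarlet and included 0 calls, 0 lower and 0 higher at unadjusted p under 0.05, and 0 by DESeq2. Of all tested intervals at gene ends, 0.619% were called, and 4.87% were lower and 4.42% higher at unadjusted p under 0.05. The 103 tested intervals elsewhere inside a gene held all 3 calls (2.91%, against 2.01% of all such intervals), and the 60 tested intergenic ones held 0 (against 2.18% of all). With counts this small, the split of calls by position was near the background. At unadjusted p under 0.05, 7 of the 60 intergenic members were lower and 0 higher, against 7.62% lower and 6.56% higher of all tested intergenic intervals. Intervals of low signal carried wide errors: 129 of the 194 had under 10 CPM in mScarlet, and the SE of the log2 fold change ran from 0.035 to 0.379 with a median of 0.174. The rule's limit of 300 kb cut between a Sema6a interval at 277 kb (log2 fold change 0.03) and a Plxna2 interval at 309 kb (-0.25, edgeR adjusted p 0.807).

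**Figure D2:**
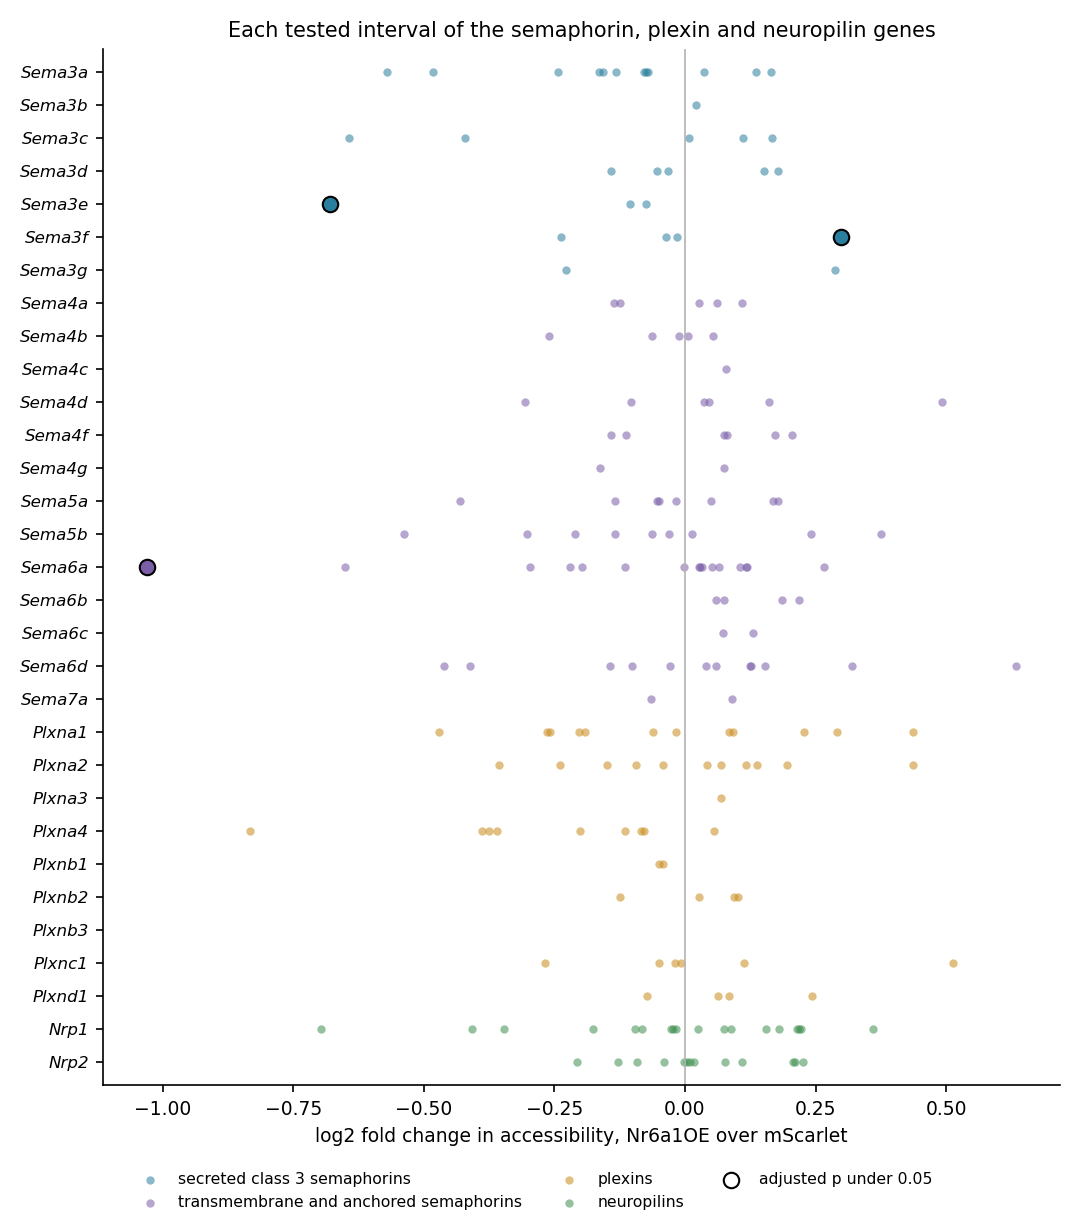
Log2 fold change in accessibility (Nr6a1OE over mScarlet, x axis) of each of the 190 tested member intervals, 1 row per gene and 1 colour per role; ringed points passed an adjusted p of 0.05. Points of most genes lie on both sides of 0, and the 3 ringed points are in Sema6a (-1.03), Sema3e (-0.68) and Sema3f (0.30).

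**Figure D3:**
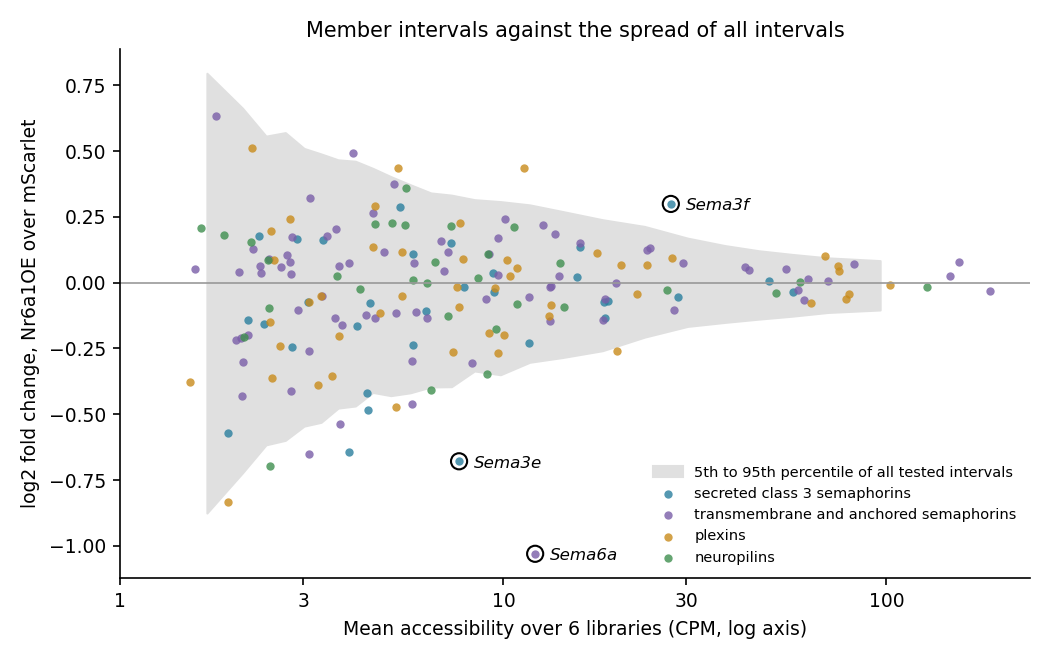
Log2 fold change (Nr6a1OE over mScarlet) of the 190 tested member intervals against their mean accessibility over 6 libraries (CPM, log axis), with the 5th to 95th percentile of all tested intervals at that level in grey and the 3 called intervals ringed. The spread narrows as accessibility rises, and the called intervals lie outside the grey band.

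The secreted class 3 semaphorins, the ligands that mostly use neuropilins, had 7 genes and 32 tested intervals. Of these 1 fell, 1 rose and 30 did not pass (median log2 fold change -0.072). The share called was 6.25%, from only 1 fall and 1 rise, against 1.73% over all tested intervals (1.26% fell and 0.469% rose). The interval that fell was in Sema3e, a ligand that binds Plxnd1 without a neuropilin and patterns blood vessels and axons. It lies at chr5:14038961-14039615 (mm10), 14.0 kb downstream of the RefSeq start whose promoter is printed above. The mScarlet libraries gave 9.99, 9.47 and 8.74 CPM (73, 65 and 70 fragments) and the Nr6a1OE libraries 8.38, 5.09 and 4.29 CPM (59, 36 and 34 fragments). The groups did not overlap, but Nr6a1OE 1 was close to the mScarlet range and the other 2 Nr6a1OE libraries were far below it. The log2 fold change was -0.68 (SE 0.162, edgeR adjusted p 0.00415). The call was lost without mScarlet 1 (adjusted p 0.0659), Nr6a1OE 2 (0.0637) or Nr6a1OE 3 (0.203), and in DESeq2 (0.583), while the fold change ran from -1.004 to -0.48 over the samples left out. In bulk chromatin, fewer cells with an open site and a less open site in each cell cannot be told apart. The interval that holds the Sema3e start was at 20.3, 18.8 and 17.4 CPM in mScarlet and at 17.6, 17.2 and 18.5 in Nr6a1OE, and those groups overlapped (log2 fold change -0.07, adjusted p 0.840).

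The interval that rose was in Sema3f, a ligand of Nrp2 that repels sympathetic, hippocampal and motor axons. It spans 3474 bp at chr9:107696875-107700348 (mm10), 11.9 kb from the nearer end of the gene. It had 23.5, 28.1 and 21.98 CPM in mScarlet and 31.1, 33.2 and 26.2 CPM in Nr6a1OE. The groups overlapped, since mScarlet 2 was above Nr6a1OE 3, although library 3 was the lowest of each group. The log2 fold change was 0.30 (SE 0.0857, edgeR adjusted p 0.0337). The call was lost without mScarlet 1 (adjusted p 0.179), mScarlet 3 (0.319), Nr6a1OE 1 (0.157) or Nr6a1OE 2 (0.304), and in DESeq2 (0.973). The Sema3f interval at the gene end held 57.8 CPM in mScarlet and 56.1 in Nr6a1OE (log2 fold change -0.04, adjusted p 0.867).

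**Figure D4:**
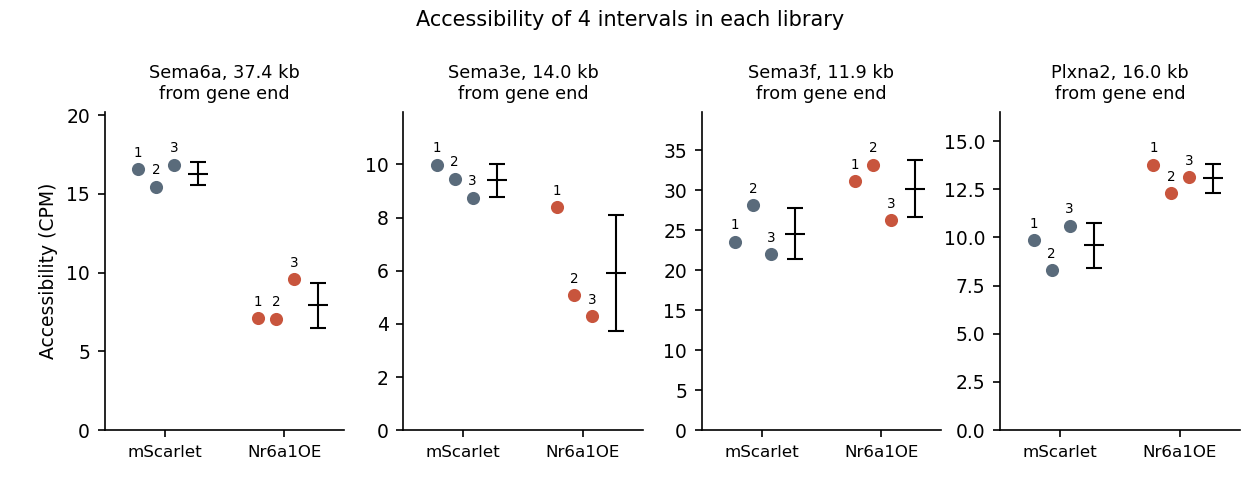
Accessibility (CPM) of 4 member intervals in each library, numbered 1 to 3, with the mean and SD of each group as a bar beside the points. The Sema6a groups are far apart, Nr6a1OE 1 lies near the mScarlet range at Sema3e, the Sema3f groups overlap, and the Plxna2 interval (adjusted p 0.0520) did not pass.

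Sema3a, the ligand that collapses sensory and motor growth cones through Nrp1, had 13 intervals, of which 12 were tested, 9 lower and 3 higher, with 0 passing. Its most accessible intervals lay inside the gene, at 19.2 CPM in mScarlet. Its 1 RefSeq start with a promoter entry, at chr5:13396784, lay inside the gene and in no interval. An interval within 1 kb of the outer start of the gene (chr5:13125284-13126250) was at 2.50 CPM in mScarlet and 2.23 in Nr6a1OE. Near Sema3c, which guides cardiac neural crest, an interval 23.3 kb outside the gene (chr5:17550953-17552073) had 4.52, 5.10 and 4.87 CPM in mScarlet and 2.84, 3.39 and 3.03 in Nr6a1OE. These groups did not overlap, yet the value did not pass (log2 fold change -0.64, SE 0.227, edgeR adjusted p 0.132). The Sema3c start interval was at 49.3 and 49.6 CPM in the groups. Sema3a, Sema3c, Sema3d and Sema3e all lie on chromosome 5, and of their 25 tested intervals 17 were lower and 8 higher (median -0.075). Over all of chromosome 5, 1546 of 3152 tested intervals were lower (median 0.0062). The groups did not overlap at 2 of the 25 (8%), against 15.4% over chromosome 5. At unadjusted p under 0.05 in edgeR, 4 (16%) were lower and 0 higher, against 5.46% and 5.20% over chromosome 5. Sema3b and Sema3g, with 1 and 2 intervals, ranged from -0.23 to 0.29, with 0 of 3 passing.

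The transmembrane and anchored semaphorins, 13 genes, had 78 tested intervals, of which 1 fell, 0 rose and 77 did not pass (median log2 fold change 0.031). The share called was 1.28%, against 1.73% over all tested intervals. The fall was in Sema6a, a transmembrane ligand of Plxna2 and Plxna4 that also acts as a receptor, and it was the strongest change among all members. The interval lies inside the gene at chr18:47333310-47334354 (mm10), 37.4 kb from the nearer end. It had 16.6, 15.4 and 16.9 CPM in mScarlet (121, 106 and 135 fragments) and 7.10, 7.06 and 9.59 CPM in Nr6a1OE (50, 50 and 76 fragments). All 3 Nr6a1OE libraries were well below all 3 mScarlet libraries, at a mean of 7.92 ± 1.45 CPM against 16.3 ± 0.747 (SD, n = 3 each). The log2 fold change was -1.03 (SE 0.131, edgeR adjusted p 6.96e-12). It passed without each of the 6 libraries (-1.20 to -0.95, highest adjusted p 7.26e-08) and in DESeq2 (adjusted p 3.74e-05).

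The other 15 Sema6a intervals did not pass. The most accessible of them, 2.8 kb inside the end of the gene, had 148, 143 and 145 CPM in mScarlet and 141, 155 and 148 in Nr6a1OE, with overlapping groups (log2 fold change 0.03, adjusted p 0.848). The nearest interval on 1 side of the closed one, 40.8 kb from the gene end, was at 2.61 and 2.84 CPM in the groups (0.11, adjusted p 0.926). The nearest on the other side, 22.3 kb from the end, was at 4.67 and 5.06 CPM (0.12, adjusted p 0.877). An interval 72.5 kb outside Sema6a (chr18:47172393-47173038) had 3.42, 3.50 and 4.37 CPM in mScarlet and 2.41, 3.25 and 1.64 in Nr6a1OE, without overlap, and did not pass (-0.65, adjusted p 0.218, and -0.42 without Nr6a1OE 3). Summed over its 16 intervals, Sema6a was at 236 ± 4.45 CPM in mScarlet and 229 ± 7.11 in Nr6a1OE (SD, n = 3 each).

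**Figure D5:**
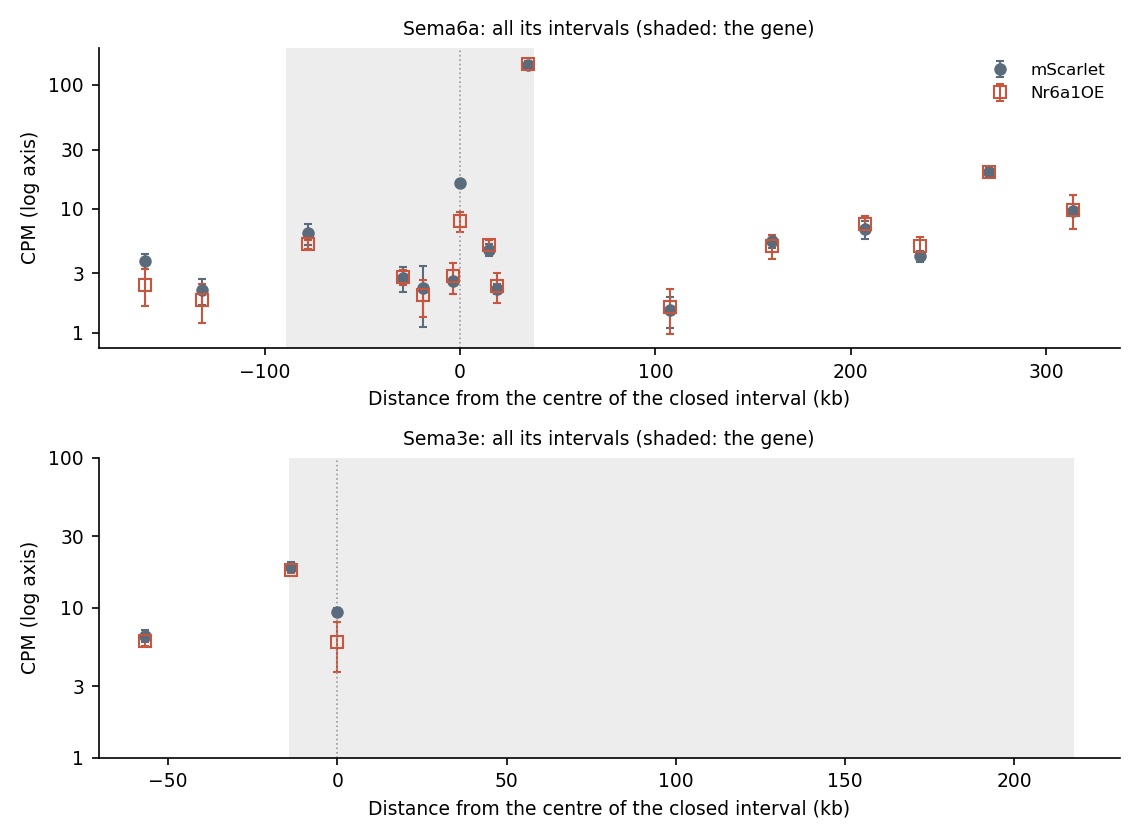
Mean accessibility (CPM, log axis, bars are SD over 3 libraries) of every interval assigned to Sema6a (top) and Sema3e (bottom), by distance in kb from the centre of the closed interval; grey shading is the gene. At the centre Nr6a1OE is below mScarlet (7.92 against 16.3 CPM in Sema6a, 5.92 against 9.40 in Sema3e), while the strongest interval of each gene is nearly equal in the groups.

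Sema6d, a ligand of Plxna1, had 12 intervals, 5 lower and 7 higher, from -0.46 to 0.63 (median 0.05), with 0 passing. The 0.63 was the highest log2 fold change among all tested members. Its strongest interval was not at the start (15.0 CPM in mScarlet) but inside the gene, 57.4 kb from an end, at 59.5 CPM in mScarlet and 58.4 in Nr6a1OE (log2 fold change -0.03). A weaker interval inside Sema6d (chr2:124145432-124146081) had 6.84, 7.14 and 5.99 CPM in mScarlet and 5.82, 5.37 and 3.41 in Nr6a1OE, without overlap (-0.46, adjusted p 0.222, and -0.24 without Nr6a1OE 3). Sema6b, another ligand of Plxna4, had 4 of 4 intervals higher, from 0.06 to 0.22, with 0 passing. Both Sema6c intervals were higher (0.07 and 0.13) with 0 passing.

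Sema4c, a ligand of Plxnb2, had 1 interval, which covers 2 RefSeq starts. Its libraries gave 155, 150 and 148 CPM in mScarlet and 166, 155 and 157 in Nr6a1OE. The groups did not overlap, but the difference was small (log2 fold change 0.08, SE 0.038) and did not pass (edgeR adjusted p 0.349). Sema4a, Sema4b, Sema4d (a ligand of Plxnb1, also known as CD100), Sema4f and Sema4g had 24 intervals in all, from -0.31 to 0.49, both at Sema4d, with 0 passing. Sema5a and Sema5b had 17, from -0.54 to 0.38, both at Sema5b, with 0 passing, and inside Sema5b a strong interval 47.1 kb from an end was at 62.1 CPM in mScarlet (0.01). Sema7a, anchored in the membrane by a lipid and bound by Plxnc1 and integrin beta-1, had 2 intervals, at -0.07 and 0.09.

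The plexins, the receptors, had 49 tested intervals of 8 genes (median log2 fold change -0.041). Of these 0 passed, against 1.73% over all tested intervals, and 0 passed in DESeq2. At unadjusted p under 0.05, 3 (6.12%) were lower and 2 (4.08%) higher, against 6.87% and 5.73% over all tested intervals. The interval closest to the threshold was inside Plxna2, a receptor for class 3 and class 6 semaphorins (chr1:194635237-194636296, 15.98 kb from the nearer end of the gene). It had 9.86, 8.31 and 10.6 CPM in mScarlet and 13.8, 12.3 and 13.1 in Nr6a1OE, so that every Nr6a1OE library was above every mScarlet library. The log2 fold change was 0.44 (SE 0.132, edgeR adjusted p 0.0520). It passed when the test was limited to intervals averaging 50 or more fragments (adjusted p 0.0443) and with the median of each chromosome removed (0.0462), and in none of the other 12 alternatives, including each of the 6 fits without a library (adjusted p 0.0515 to 0.257). The start interval of Plxna2 was at 74.2 CPM in mScarlet and 76.3 in Nr6a1OE (0.04, adjusted p 0.806).

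Plxna4, which with Nrp1 transmits Sema3a repulsion and also binds class 6 ligands, had 8 of 9 intervals lower in Nr6a1OE, with a median of -0.20, and 0 passing. Its summed accessibility was 121, 114 and 114 CPM in mScarlet and 106, 108 and 109 in Nr6a1OE, and these groups did not overlap. The lowest value was at a weak interval inside the gene (chr6:32280640-32281079), with 3.42, 2.33 and 1.62 CPM in mScarlet and 1.42, 1.27 and 1.39 in Nr6a1OE (-0.83, SE 0.342, adjusted p 0.238, and -0.51 without mScarlet 1). The Plxna4 interval at the gene end, at 65.4 and 62.0 CPM, differed by -0.08 (adjusted p 0.613). Plxna4 lies on chromosome 6, where 1830 of 3177 tested intervals were lower, with a median of -0.031. With chromosome medians removed, Plxna4 had 8 of 9 intervals lower (median -0.16). A link between the chromosome shift and the values at Plxna4 was not tested. Plxna1, a receptor of Sema6d and of class 3 ligands on the same chromosome, had 7 of 12 intervals lower and 6 of 12 with the chromosome median removed. A Plxna1 interval inside the gene (chr6:89333778-89335248) had 21.8, 21.3 and 21.7 CPM in mScarlet and 18.8, 18.4 and 17.2 in Nr6a1OE, without overlap (-0.26, SE 0.100, adjusted p 0.196). A second, 34.5 kb outside Plxna1 (chr6:89281143-89282546), was at 6.07 ± 1.12 CPM in mScarlet and 4.38 ± 0.631 in Nr6a1OE (SD, n = 3 each; -0.47, adjusted p 0.243).

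Plxnb2, the receptor of Sema4c, had 3 of 4 intervals higher with 0 passing, including both that hold a start. At its stronger start the libraries gave 65.0, 69.4 and 66.1 CPM in mScarlet and 72.2, 73.2 and 69.6 in Nr6a1OE, without overlap, a difference that did not pass (log2 fold change 0.10, SE 0.054, adjusted p 0.436). Plxnb1, the Sema4d receptor, held 81.2 CPM at its start in mScarlet and 78.7 in Nr6a1OE (-0.04). Plxnc1, the Sema7a receptor, was at 102 CPM at its start in each group (-0.01). Plxnd1, the receptor of Sema3e, was at 73.3 and 76.5 CPM (0.06, adjusted p 0.678). Plxna3 had 1 interval, at 0.07.

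The neuropilins, co-receptors of class 3 semaphorins and of vascular endothelial growth factor, had 31 tested intervals (median log2 fold change 0.0092). Of these 0 passed, against 1.73% over all tested intervals, and 0 passed in DESeq2. At unadjusted p under 0.05, 3 (9.68%) were lower and 0 higher, against 6.87% and 5.73% over all tested intervals. Nrp1, which holds Sema3a, had 18 intervals, 9 lower and 9 higher. The interval with the printed Nrp1 promoter had 123, 135 and 128 CPM in mScarlet and 129, 125 and 128 in Nr6a1OE, with overlapping groups (-0.02, adjusted p 0.916). Intergenic Nrp1 intervals at chr8:128528459-128529607 and chr8:128263225-128264263, 23.6 and 94.8 kb outside the gene, went from 10.1 to 7.999 CPM (-0.35) and from 7.40 to 5.55 CPM (-0.41), each with an edgeR adjusted p of 0.264. Without Nr6a1OE 3 the first was at -0.20. Only the second of them was without overlap of the groups. Nrp2, which holds Sema3f, had 13 intervals between -0.21 and 0.23, all with overlapping groups. Its start interval was at 52.1 ± 1.96 CPM in mScarlet and 50.7 ± 1.34 in Nr6a1OE (SD, n = 3 each), and an interval 3.7 kb inside the gene reached 59.5 CPM in mScarlet.

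Summed over all intervals of a gene, the groups did not overlap at 6 of 30 genes, against 16.9% of 16521 genes with an interval by the same rule (9.14% lower and 7.71% higher). The sums were lower at Plxna1 (171 to 164 CPM), Plxna4 (116 to 108) and Sema3e (34.7 to 29.7), and higher at Plxnb2 (117 to 123), Sema4c (151 to 159) and Sema6c (103 to 109). These gene sums carry no test, and chromosome medians were not removed from them. They are not separate from the intervals above: the Sema3e sum includes its called interval, and the Sema4c sum is 1 interval. Plxna1 and Plxna4 lie on chromosome 6, where the median log2 fold change of all tested intervals was -0.031. The median log2 ratio of the sums was -0.0014 over the 30 genes and -0.0028 over all genes.

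A mixed list of 48 genes was read as pathway partners. It held the Mical and Crmp effectors, Rnd GTPases and Met, and also genes such as Vegfa, Cd72, Timd2, Plxdc1 and Plxdc2. Of these 48 genes, 47 had an interval. Of their 212 tested intervals 1 fell, 0 rose and 211 did not pass, or 0.472% called against the 1.73% over all tested intervals (median log2 fold change -0.0021, 107 lower and 105 higher). At unadjusted p under 0.05, 20 (9.43%) were lower and 11 (5.19%) higher, against 6.87% and 5.73% over all tested intervals. The groups did not overlap at 46 (21.7%), 25 lower and 21 higher, against 16.6% of all tested intervals. The interval that fell was inside Kdr, a receptor of vascular endothelial growth factor that can pair with Nrp1 (chr5:75941002-75942569). It had 8.63, 9.33 and 9.37 CPM in mScarlet and 7.81, 5.65 and 5.05 in Nr6a1OE, without overlap. The log2 fold change was -0.57 (SE 0.161, edgeR adjusted p 0.0293). The call was lost in DESeq2 (adjusted p 0.864) and without mScarlet 1 (0.0686), mScarlet 2 (0.0893), mScarlet 3 (0.135), Nr6a1OE 2 (0.139) or Nr6a1OE 3 (0.276).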

How the data were processed

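The authors deposited raw fragment counts for 52223 consensus intervals in 6 ATAC-seq libraries. Per the file headers, read pairs were counted with featureCounts 2.0.1, a fragment counting for every interval that held at least 0.2 of it. The build is mm10, per the submitters' processing notes. The aligner, the peak caller and any Tn5 shift: not given in the sources used here. Neighbouring intervals can share fragments.

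Gene positions and promoters came from RefSeq (GRCm38.p6, the coordinates of mm10), which gave no exons, so introns and exons were not told apart. Intervals were filtered with filterByExpr, which left 51637, scaled by TMM and compared with edgeR 4.0.16 (glmQLFit, glmQLFTest, R 4.3.3), with Benjamini-Hochberg adjustment over all of them. The script was tested on simulated data. Each SE is the absolute log2 fold change divided by the square root of F. CPM were counts per library size times TMM factor. Alternatives included DESeq2 1.42.0. Depth limits precision, and intervals of low signal have wide errors.

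Named intervals were all called members, then those next by p until 12 were named, and the strongest interval at each gene end; others named in the text were chosen after their values were seen. Members, lists and alternatives were chosen with earlier results of these data known. Sequences of the intervals themselves were not analysed here.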

Additional observations from a re-analysis of the deposited data

How the results depend on the processing

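Against 2 members that fell and 1 that rose, DESeq2 gave 1 and 0, and intervals within 1 kb of a member gene end alone gave 0 and 0. Members that rose numbered 2 with a minimum mean of 50 fragments and 2 with chromosome medians removed. Leaving out each library gave 1 to 2 that fell and 0 to 1 that rose. Over all intervals, against 652 that fell and 242 that rose, DESeq2 gave 97 and 3, the minimum of 50 fragments gave 430 that fell, and leaving out each library gave 395 to 544 that fell and 98 to 190 that rose. With the replicate block 617 fell and 224 rose over all intervals, and the same numbers of members were called. Deviations of same-numbered libraries had correlations of 0.019, -0.010 and -0.014. Spread within groups was close to counting noise, which libraries do not share. These correlations therefore cannot tell whether the numbers pair the samples. The member median, -0.0047, stayed within its spread between libraries (SD 0.0153) in all 17 alternatives but has no stable sign: it was 0.0049 with the minimum of 50 fragments, 0.0062 with chromosome medians removed, 0.0097 without mScarlet 3 and 0.0072 within 1 kb of a gene end. The called members, and the members named as next by p, kept their sign in every alternative run on them. They were chosen for low p, so a stable sign there says little about other members. The sign of the strongest interval at each gene end was not followed through these alternatives. The Sema6a interval passed in all 14 alternatives run on it. Within groups, a chi-square of 1.04 to 1.10 per degree of freedom over intervals averaging 10 or more fragments was slightly above counting noise. Between Nr6a1OE 1 and 3 it was 0.997 over intervals averaging 100 or more, so a fit with these summed to 1 sample was added after the values were seen; it gave 638 that fell and 224 that rose, and the same numbers of members.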
